A study of Mus musculus with 6 samples.

Results

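The resting transcriptome of the lower lumbar spinal cord was described from the 3 libraries of mice that received saline, out of 6 libraries in the series. The libraries were chosen by their label alone, and no measured value entered the choice. All 3 came from wild-type mice whose age and strain the labels leave out. The mice were injected with saline into the intrathecal space for 7 days, and the RNA was taken from segments L4 to L5. The other 3 libraries came from wild-type mice given morphine by the same route, and their values were not used. Each library's description carries a series of numbers, 3 for saline 1 and 2 and 2 for saline 3, without saying if these are animals that were pooled, so the spread between libraries may be technical or biological. All of what follows concerns mice that had repeated intrathecal injections, and cord without injections was not analysed here.

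The lumbar cord receives the sensory fibers of the hind limb in its dorsal horn, integrates them in local excitatory and inhibitory interneurons, and drives the limb muscles through motor neurons of the ventral horn. Long tracts of myelinated axons surround this gray matter, so oligodendrocytes, which make the myelin, take up much of the tissue. Fast excitation in the cord runs on glutamate, and fast inhibition runs on both GABA and glycine. Motor neurons release acetylcholine, and serotonin and noradrenaline arrive through axons whose cell bodies lie in the brainstem.

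The values are FPKM, fragments scaled by transcript length and by the number of mapped fragments, so they compare levels between genes per unit of length. Low FPKM values move in steps of 1 fragment, and these steps put the depth at 21460000 fragments in saline 1, 26070000 in saline 2 and 21240000 in saline 3. At these estimates 77.6% to 79.7% of the low values lay at whole numbers of fragments, against 14.3% to 16.9% if values were spread evenly. The estimates were chosen to make this excess as large as possible, so the excess is not separate support for them. Over 14548 genes, which are no independent replicates, Pearson's r was 0.984 for saline 1 and 2, 0.982 for saline 1 and 3, and 0.979 for saline 2 and 3. Saline 3 stood apart from the others in the markers of several cell classes, and values without it are given beside the results it moves most. Each value below that follows a ± sign is an SD over the 3 libraries, and values listed in threes are saline 1, 2 and 3 in that order.

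Of 21806 nuclear protein-coding genes in the table, 12844 had a mean of at least 1 FPKM, 7207 of at least 10, 887 of at least 100 and 28 of at least 1000. A further 4373 were listed at 0 in all 3 libraries. The 10 most abundant genes held 6.72% ± 0.776 of the summed FPKM of protein-coding genes, the 100 most abundant held 20.9% ± 0.929, and the 1000 most abundant held 56.6% ± 0.538. A set of 7 unprocessed pseudogenes on chromosome 1 held a further 21.4% to 22.8% of the FPKM of the whole table. For that reason the shares below are of the protein-coding FPKM and not of the table's total.

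Myelin led the ranking. Mbp, myelin basic protein, was the most abundant transcript at 11469, 12336 and 8256 FPKM, which by itself was 2.186% ± 0.439 of the protein-coding FPKM. Its values in saline 1 and 2 lay close together and saline 3 lay below both. Mobp, another myelin protein, had rank 6 at 1905, 2020 and 1427 FPKM. Saline 3 was lowest for both genes. Fth1, the heavy chain of the iron store ferritin, had rank 2 at 5162, 5422 and 4315 FPKM. Apoe, the lipid carrier made by astrocytes, had rank 4 at 2107 ± 174 FPKM. Ppia, a prolyl isomerase of all cells, had rank 5 at 2052 ± 20.6 FPKM. Fth1, Ppia and the glycolytic enzyme gene Gapdh have processed pseudogenes, so some of their fragments could have been split between copies.

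**Figure D1:**
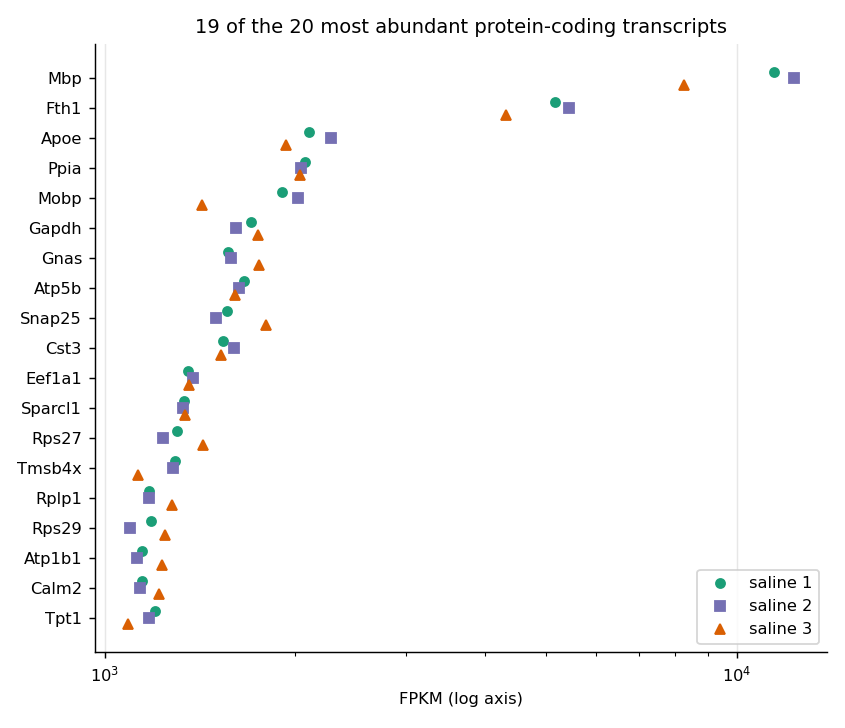
FPKM (log axis) of 19 of the 20 protein-coding genes with the highest mean, with 1 symbol for each of the 3 saline libraries. Mbp lies at 8256 FPKM or above in every library, and the myelin genes Mbp and Mobp have their lowest value in saline 3, while Snap25 has its highest value there.

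The rest of the 20 most abundant genes included genes known from neurons, from astrocytes and from the general machinery of cells. Bulk libraries do not show which cells a transcript came from. Snap25, a fusion protein of the presynaptic terminal, had rank 10 at 1558, 1498 and 1797 FPKM, and its highest value was in saline 3. Gnas, the stimulatory G protein alpha subunit, stood at 1637 ± 103 FPKM, a value that includes the overlapping transcripts of its imprinted locus. Atp5b, a subunit of ATP synthase, stood at 1630 ± 26.6 FPKM. The protease inhibitor Cst3 (1554 ± 42.0 FPKM) and the secreted protein Sparcl1 of astrocytes (1333 ± 5.72 FPKM) lay near the translation factor Eef1a1 (1364 ± 10.7 FPKM). Calm2, a calmodulin gene, and Atp1b1, a subunit of the sodium pump, had the nearly equal means of 1166 ± 44.6 and 1166 ± 55.7 FPKM. The ribosomal protein genes Rps27, Rplp1 and Rps29 were the only ribosomal members among these 20, at 1322, 1208 and 1174 FPKM. As a class the 98 ribosomal protein genes at 1 FPKM or more held 7.48% ± 0.380 of the protein-coding FPKM, and the 93 genes of the respiratory chain and ATP synthase held 5.36% ± 0.101.

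The markers of lumbar cord were all present. Mbp for myelin, Snap25 for neurons and Gfap for astrocytes ranked 1, 10 and 103 among protein-coding genes, and Gfap, the intermediate filament of astrocytes, stood at 594, 579 and 386 FPKM. Hoxc10, a homeobox gene of lumbar segments, ranked 1657 at 55.6, 55.9 and 65.6 FPKM. The defining markers of tissue that a dissection could bring along were at or near 0. Ttr, the transport protein of choroid plexus, had a mean of 0.0533 FPKM. Scn10a and Mrgprd, channel and receptor of nociceptors in the dorsal root ganglion, had means of 0.00667 and 0 FPKM. The T cell gene Cd3e and the fat cell gene Plin1 each had a mean of 0.0167 FPKM. In all 3 libraries the Y-linked gene Ddx3y was present, at 26.92, 26.25 and 27.65 FPKM, and Xist was listed at 0.01, 0 and 0.01 FPKM.

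Oligodendrocytes and myelin held the largest share of any cell class measured by marker lists. The 24 genes of this list summed to 25482, 26514 and 18403 FPKM, or 4.80% ± 0.900 of the protein-coding FPKM, and all 24 were above 1 FPKM. Mbp held 45.5% of that sum, and other leading members were Mobp, the iron carrier Trf (1215, 1165 and 809 FPKM) and Cldn11, the claudin of myelin (591, 640 and 432 FPKM). All 24 were lowest in saline 3. Over all 12844 genes at 1 FPKM or more, saline 3 was lowest in 30.5%. Precursors of these cells, read from 15 genes, summed to 436, 449 and 380 FPKM. Their leading member was Olig1, a transcription factor of the whole oligodendrocyte lineage, at 139, 151 and 106 FPKM. In bulk tissue, fewer cells of a type and less RNA per cell cannot be told apart.

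Neuronal and astrocytic markers held smaller shares. The 20 genes of neurons of all types held 1.57% ± 0.0855 of the protein-coding FPKM and the 22 astrocyte genes 1.42% ± 0.0752. Snap25 led the neuronal list with 21.1% of its sum. The neurofilament genes Nefm and Nefl followed, at 990, 873 and 466 FPKM and at 816, 726 and 444 FPKM, and saline 3 was lowest for both. The neuronal genes did not share 1 order of libraries, since saline 3 was highest for 13 of the 20 and lowest for 6. Over all genes at 1 FPKM or more, saline 3 was highest in 47.0% and lowest in 30.5%. The surface protein gene Thy1 stood at 616 ± 22.8 FPKM and the ubiquitin hydrolase gene Uchl1 at 588 ± 54.9 FPKM. Sparcl1 led the astrocyte list, before the aldolase gene Aldoc (927, 897 and 913 FPKM), the carboxypeptidase gene Cpe (746, 803 and 782 FPKM) and the calcium-binding protein gene S100b (684, 693 and 492 FPKM). Glul, the glutamine synthetase that recycles glutamate, stood at 549, 541 and 476 FPKM.

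The lists of other cell classes of the cord held less. The share of a list depends on which genes were listed and on their levels, so shares of different lists do not compare amounts of cells. Microglia, the resident immune cells, were read from 20 genes that summed to 420, 451 and 419 FPKM, or 0.0879% ± 0.00396. Among their leading members were the cathepsin gene Ctss (105 ± 2.55 FPKM) and C1qa, a chain of complement C1q (48.7 ± 3.89 FPKM). Endothelial markers summed to 344, 368 and 306 FPKM, with Ly6c1 and the glucose transporter gene Slc2a1 at the same level (61.9 ± 7.69 and 61.7 ± 8.08 FPKM). Pericytes and smooth muscle summed to 110, 112 and 102 FPKM, led by Vtn and Rgs5. Ependymal cells, which line the central canal, were faint. Their ciliary factor gene Foxj1 stood at 11.2, 9.51 and 8.33 FPKM, and 4 of 15 listed genes were above 1 FPKM.

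Tissue at the border of the cord differed from library to library. Ptgds, a prostaglandin synthase of the meninges that oligodendrocytes also make, stood at 973, 683 and 721 FPKM, so saline 1 lay above the others. Pmp22, a membrane protein of Schwann cells, stood at 98.7, 134 and 73.3 FPKM, so saline 2 lay above the others. Fabp7 and Sox10 of the same Schwann cell list are also made by central glia, and they did not share that order, at 93.5, 83.6 and 94.1 FPKM and at 35.8, 32.0 and 27.5 FPKM. Hemoglobin transcripts were present in every library and highest in saline 3, with Hbb-bs at 385, 372 and 502 FPKM and Hba-a1 at 383, 323 and 470 FPKM. Hba-a1 and Hba-a2 are near-identical copies, and their split between both genes is uncertain.

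**Figure D2:**
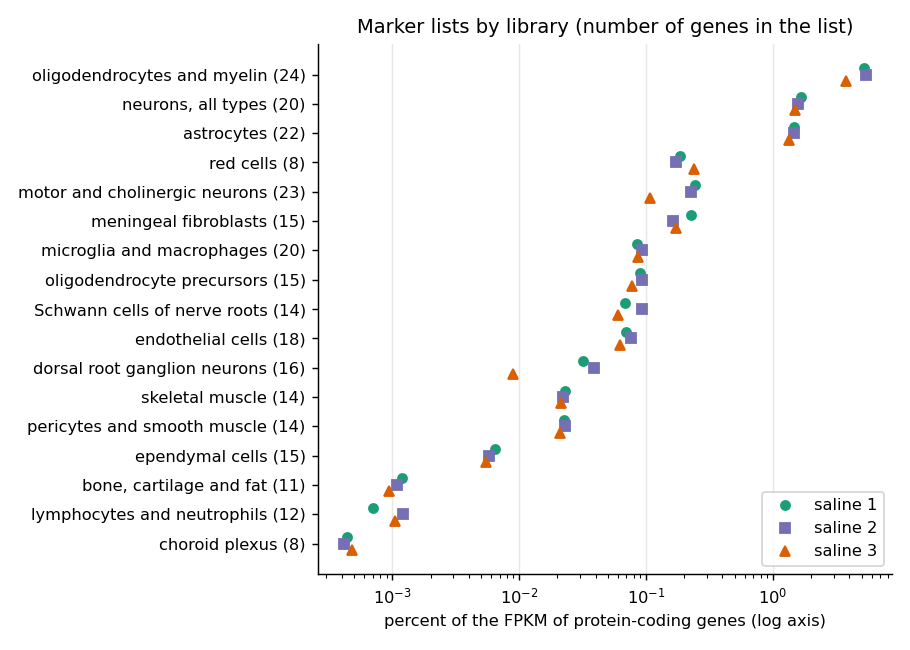
Share of the FPKM of protein-coding genes (percent, log axis) held by 17 lists of marker genes, with 1 symbol per saline library and the number of genes measured in brackets. Oligodendrocytes and myelin lie highest, and the motor and dorsal root ganglion lists have saline 3 far to the left of the other libraries. Their shared members include Calca and Prph.

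The transmitter machinery of the cord was described by the route each transmitter takes. Glutamate is loaded into vesicles by 3 transporters, of which only Slc17a6 (VGLUT2) was above 1 FPKM, at 68.5, 70.4 and 91.1 FPKM. Slc17a8 (VGLUT3) had a mean of 0.473 FPKM and Slc17a7 (VGLUT1), which marks cortical neurons and large sensory neurons outside the cord, a mean of 0.153 FPKM. Uptake of glutamate was led by the astrocyte transporter Slc1a2 (GLT-1) at 133, 132 and 128 FPKM, which was 4.78 ± 0.363 times the level of Slc1a3 (GLAST).

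Inhibitory neurons use a shared vesicle transporter for GABA and glycine, Slc32a1, which stood at 89.8, 84.6 and 98.7 FPKM. The ratio of Slc17a6 to Slc32a1 was 0.763, 0.832 and 0.923, so the excitatory vesicle transporter lay below the inhibitory one in each library. Of the enzymes that make GABA, Gad1 stood at 82.7, 90.4 and 116 FPKM and Gad2 at 23.9, 24.2 and 32.9 FPKM, a ratio of 3.57 ± 0.143. Both had their highest value in saline 3. The GABA uptake transporter Slc6a11 stood at 96.3 ± 1.84 FPKM, and the breakdown enzyme Abat stood at 135 ± 11.5 FPKM. For glycine, the neuronal transporter Slc6a5 (GlyT2) stood at 57.8, 47.8 and 62.1 FPKM and the glial transporter Slc6a9 (GlyT1) at 93.3, 85.7 and 71.0 FPKM. Their ranges did not overlap, so GlyT1 lay above GlyT2 throughout.

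Acetylcholine genes did not share 1 pattern. Ache, the esterase that ends its action, had nearly the same level in all libraries at 102, 99.8 and 101 FPKM. The genes that mark the cholinergic neuron itself did not. Slc18a3, the vesicle transporter, stood at 27.9, 20.7 and 4.20 FPKM, Slc5a7, the choline transporter, at 22.9, 20.4 and 3.70 FPKM, and Chat, the synthesizing enzyme, at 8.19, 7.70 and 2.08 FPKM. Saline 3 was far below the others for each of these 3 genes.

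Several genes of monoamine synthesis and reuptake were near 0, while the breakdown enzymes were present. Tph2, the enzyme that makes serotonin in brainstem neurons, had a mean of 0.213 FPKM, Dbh, which makes noradrenaline, a mean of 0.00667 FPKM, and the reuptake transporters Slc6a4 and Slc6a2 were listed at 0 in all 3 libraries. Th, the first enzyme of dopamine synthesis, stood at 2.18, 3.47 and 3.24 FPKM, and the decarboxylase Ddc at 8.11 ± 0.576 FPKM. The breakdown enzymes Maoa and Maob stood at 17.0 ± 0.590 and 10.5 ± 0.543 FPKM.

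Peptide precursors were led by somatostatin and the enkephalin precursor, peptides of dorsal horn interneurons. Of 44 precursor genes, 31 were at 1 FPKM or more, and their sum was 1697, 1852 and 2030 FPKM. Sst, somatostatin, led at 354, 380 and 486 FPKM, and Penk, proenkephalin, followed at 193, 225 and 253 FPKM. The granule proteins Scg2 and Chga came next at 202 ± 40.3 and 174 ± 3.15 FPKM, and Cck, cholecystokinin, stood at 140, 147 and 172 FPKM. Penk was 13.9 ± 0.480 times Pdyn, the precursor of dynorphin, a ratio that held in each library (13.8, 14.4 and 13.5). The substance P precursor Tac1 (57.7 ± 10.2 FPKM) and the neurokinin B precursor Tac2 (58.8 ± 7.51 FPKM) were at the same level within their spread. Of the 31 genes, 26 had their highest value in saline 3, and saline 3 was highest in 47.0% of all genes at 1 FPKM or more. Calca, the CGRP precursor made by motor neurons and sensory neurons, went the other way at 81.8, 113 and 23.5 FPKM. Oxt, Hcrt and Gnrh1, peptides of the hypothalamus, had means of 0.10, 0.0967 and 0.143 FPKM, and Avp was listed at 0.

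Receptors were read family by family. Of 170 receptor and receptor subunit genes, 104 were at 1 FPKM or more and 39 at 10 or more, and together they held 0.363% ± 0.0223 of the protein-coding FPKM. Within the AMPA family, which carries fast excitation, Gria4 led at 54.1, 48.6 and 55.7 FPKM, before Gria2 at 29.2, 33.6 and 38.7 FPKM, Gria3 at 27.1 ± 0.394 FPKM and Gria1 at 17.2, 19.3 and 26.0 FPKM. Gria4 held 39.2% ± 2.63 of the family's sum. Its range did not overlap that of Gria2. Among NMDA receptor genes the obligatory subunit Grin1 held 73.1% ± 1.65 of the sum, at 78.0, 82.2 and 95.6 FPKM. Grin1 was 10.6 ± 0.681 times Grin2d. The other subunits were Grin3a at 8.94 ± 0.838, Grin2d at 8.03 ± 0.7996, Grin2c at 5.45 ± 0.153, Grin2a at 4.93 ± 0.354, Grin3b at 2.30 ± 1.11 and Grin2b at 1.78 ± 0.538 FPKM. Grin3a and Grin2d overlapped. Of the kainate family Grik5 led (24.1 ± 1.71 FPKM), and of the metabotropic receptors Grm5 and Grm7 overlapped at 16.4 ± 3.00 and 13.3 ± 1.57 FPKM, while the retinal member Grm6 was listed at 0.

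Receptors of fast inhibition had no single leading alpha subunit for GABA and a clear one for glycine. Gabra3 stood at 50.7, 52.0 and 69.2 FPKM and Gabra2 at 57.6, 54.3 and 53.1 FPKM, so Gabra2 led in saline 1 and 2 and Gabra3 in saline 3. Gabra5, a mostly extrasynaptic subunit, stood at 34.3 ± 3.72 FPKM. Gabra6 of cerebellar granule cells was listed at 0, and Gabrd of extrasynaptic receptors had a mean of 0.357 FPKM. The glycine receptor was led by its shared beta subunit Glrb at 138, 132 and 145 FPKM. Among its alpha subunits Glra1, the adult synaptic form, stood at 28.7, 28.9 and 26.6 FPKM, which was 5.37 ± 1.15 times Glra3, with 6.29, 5.73 and 4.08 in the single libraries. Of the GABA-B pair, Gabbr1 was 8.19 ± 0.762 times Gabbr2. Slc12a5 (KCC2), the chloride exporter on which both inhibitory receptors depend, was 4.91 ± 1.07 times its importing relative Slc12a2 (NKCC1), with 4.28, 4.31 and 6.15 in the single libraries.

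The opioid receptor family was led by the nociceptin receptor gene Oprl1 at 31.0, 32.1 and 36.7 FPKM, or 87.1% ± 0.7397 of the family's sum. Oprk1, the kappa receptor, stood at 2.73, 3.88 and 3.88 FPKM. Oprd1, the delta receptor, stood at 0.90, 0.64 and 0.92 FPKM and Oprm1, the mu receptor through which morphine acts, at 0.62, 0.50 and 0.67 FPKM, so the order of these last 2 was the same in each library but their ranges overlapped. Oprl1 was 56.3 ± 7.21 times Oprm1. The nociceptin precursor Pnoc, the ligand gene of Oprl1, stood at 12.2, 13.1 and 17.6 FPKM, below Penk, the ligand gene of the delta and mu receptors.

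Serotonin and noradrenaline receptors were present although the genes that make these transmitters were low. Htr2c led the 14 serotonin receptor genes with 59.5% ± 1.26 of their sum, at 37.6, 40.3 and 51.5 FPKM, and Htr7 followed at 12.2, 12.5 and 14.5 FPKM. The ion channel subunits Htr3a and Htr3b stood at 1.51 ± 0.522 and 0.0967 FPKM. Adra2a, the noradrenaline receptor at which clonidine acts, led the adrenergic family at 12.4, 12.7 and 14.1 FPKM, before Adra1b at 8.43 ± 0.473 FPKM. Drd2 led the dopamine receptors at 6.06, 6.42 and 7.89 FPKM, and Drd3 had a mean of 0.0200 FPKM. Hrh3 led the histamine receptors at 10.3 ± 1.28 FPKM.

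Receptors for acetylcholine, adenosine, ATP and cannabinoids followed. Chrm2 held 74.8% ± 4.17 of the muscarinic sum at 14.9 ± 0.599 FPKM. Of 16 nicotinic genes Chrnb2 (12.1 ± 0.825 FPKM) and Chrna4 (11.8 ± 1.97 FPKM), the pair that forms the main central nicotinic receptor, overlapped in range, and the muscle subunits Chrnd and Chrng were listed at 0. Adora1 stood at 52.7 ± 1.42 FPKM, and Adora2a of striatal neurons had a mean of 0.587 FPKM. P2ry12, a marker of microglia, held 60.4% ± 1.68 of the P2Y family, and Cnr1 held 98.8% ± 0.199 of the cannabinoid family at 11.3, 12.3 and 14.5 FPKM while Cnr2 had a mean of 0.0533 FPKM.

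Other peptide receptors were read in the same way. Sstr2, the leading receptor for somatostatin, stood at 4.97, 5.67 and 6.91 FPKM, Npy1r, for neuropeptide Y, at 5.29, 6.91 and 7.17 FPKM, and Tacr1, for substance P, at 4.77, 4.51 and 5.18 FPKM. Tacr3 overlapped Tacr1 at 4.57, 5.14 and 7.05 FPKM. Grpr, the gastrin-releasing peptide receptor of itch neurons, had a mean of 0.160 FPKM, under its relative Nmbr at 2.64 ± 0.0757 FPKM. All 3 galanin receptor genes had means under 1 FPKM although the galanin gene Gal stood at 19.3 ± 2.82 FPKM. Growth factor receptors were higher: Ntrk2, for BDNF, stood at 48.7, 50.5 and 53.5 FPKM, with Bdnf itself at 3.39, 3.57 and 4.72 FPKM, and Fgfr3 at 62.2 ± 1.19 FPKM.

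**Figure D3:**
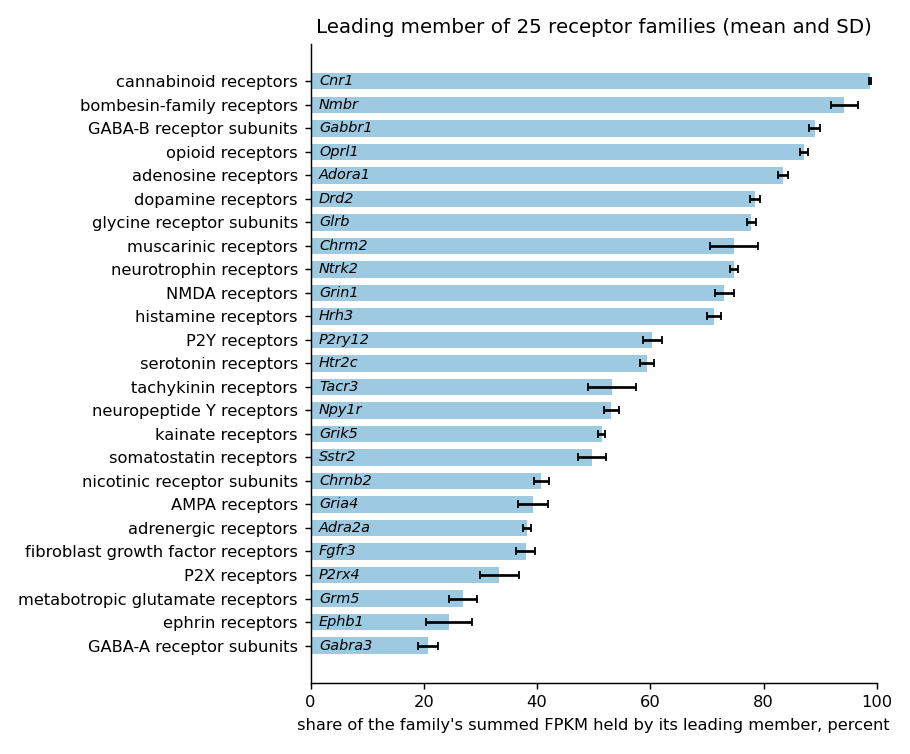
Share of each receptor family's summed FPKM (percent) held by its leading member, named in the bar, as the mean of 3 saline libraries with its SD. Cnr1, Nmbr, Gabbr1, Oprl1 and Adora1 hold over 80% of their families, and Gabra3 holds 20.7% of the GABA-A subunits.

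Transcription factors that pattern the body axis in the embryo were still measured in this tissue. Of 39 Hox genes, which set position along the body axis, 29 were at 1 FPKM or more, with a sum of 764, 783 and 982 FPKM. Hoxb8 led at 194, 203 and 264 FPKM and alone held 26.1% of the sum. Hoxc10, Hoxa7, Hoxb6 and Hoxb9 followed at 59.0 ± 5.67, 58.8 ± 5.46, 53.2 ± 10.9 and 50.4 ± 12.6 FPKM. Summed by paralog group, the level climbed from 1.38 FPKM in group 1 to 282 ± 43.4 FPKM in group 8, stood at 126 ± 22.1 and 123 ± 12.1 FPKM in groups 9 and 10, and was 4.92 ± 1.78 FPKM in group 11. Group 12 was listed at 0 and group 13 summed to 0.0567 FPKM. The Hoxb cluster held 51.3% of the Hox sum, Hoxa 21.8%, Hoxc 15.0% and Hoxd 11.9%. Members next to each other in the order of levels overlapped in 24 of 28 pairs, so the order within the family below Hoxb8 is loose.

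**Figure D4:**
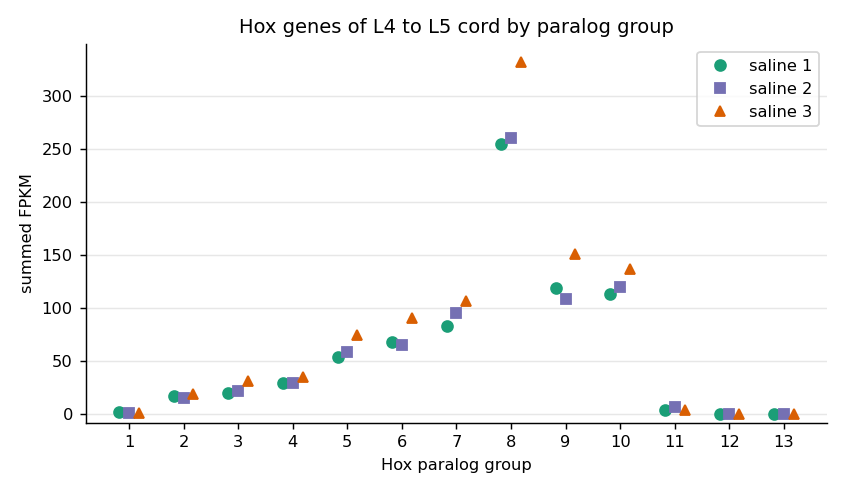
Summed FPKM of the Hox genes of each paralog group, from the anterior group 1 to the posterior group 13, with 1 symbol per saline library. The sum is highest in group 8, close to 0 in groups 12 and 13, and higher in saline 3 than in the other libraries in groups 2 to 10.

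Other factor families divided by cell class. Olig1 led the glial lineage factors, before Nfic (52.3, 52.0 and 52.1 FPKM) and Olig2 (38.7, 40.9 and 31.6 FPKM), and saline 3 was lowest for 17 of these 24 genes. Dorsal horn factors went the other way. Of 21 genes 20 were at 1 FPKM or more, with a sum of 139, 148 and 188 FPKM, and saline 3 was highest for 19 of the 20. Ebf3 (18.2, 20.8 and 25.8 FPKM), Zic1 (14.2, 15.2 and 20.9 FPKM) and Lbx1 (10.12, 11.02 and 15.68 FPKM), which specifies dorsal interneurons, were among the first 5 of that list. Over all 12844 genes at 1 FPKM or more, saline 3 was lowest in 30.5% and highest in 47.0%. Factors of ventral interneurons and motor neurons summed to 44.9, 42.3 and 42.5 FPKM, and 8 of 26 genes were at 1 FPKM or more. Among hormone receptors Thra, for thyroid hormone, led at 132, 152 and 153 FPKM, and the glucocorticoid receptor gene Nr3c1 stood at 16.2 ± 0.325 FPKM. The immediate early genes Fos (23.77, 21.18 and 22.95 FPKM), Jun (20.8 ± 0.376 FPKM) and Egr1 (17.99, 18.12 and 22.32 FPKM) were at similar levels, below Atf4 (91.4 ± 3.75 FPKM) and Jund (72.9 ± 3.04 FPKM).

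Most gene families had a constant leading member. Of 76 paralog and receptor families whose leader had at least 1 FPKM, 70 had the same leader in all 3 libraries. The leader held a median of 58.2% of the family's FPKM, held over 50% in 50 families and over 80% in 13. These shares depend on the size of the family, which ran from 2 to 19 measured genes. In a family of 2, such as the GABA-B pair, the leader holds at least 50% by construction. In 12 of the 76 families its range over the 3 libraries overlapped that of the second member. The 6 families without a constant leader were the cathepsins, metallothioneins, GABA-A subunits, ephrin receptors, nicotinic subunits and tachykinin receptors. Without saline 3, 75 of 76 families had a constant leader.

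Among cytoskeletal families, Tuba1a led the alpha-tubulins at 1059, 1016 and 841 FPKM, before Tuba1b at 653 ± 31.1 FPKM, a pair whose similar sequences make the split uncertain. Tubb4a, a beta-tubulin of oligodendrocytes and neurons, led at 731, 660 and 584 FPKM, and Tubb3, the neuronal form, stood at 413.6, 368.0 and 290.5 FPKM. Actb and Actg1, the actins of nonmuscle cells, were equal within their spread at 474 ± 24.1 and 465 ± 26.8 FPKM. Among kinesin heavy chains the neuronal Kif5a led at 211 ± 8.02 FPKM.

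Synaptic families were led by these members. Vamp1 led Vamp2 in each library, at 435, 413 and 420 FPKM against 175, 184 and 167 FPKM. Cplx1 stood at 562 ± 19.4 FPKM against 95.3 ± 15.7 FPKM for Cplx2. Syt11 led the synaptotagmins at 286 ± 15.1 FPKM, and the calcium sensors for fast release, Syt2 and Syt1, overlapped at 70.2 ± 7.42 and 57.8 ± 13.2 FPKM. Rab3a held 89.4% ± 0.0855 of the Rab3 family. Calm2 and Calm3 encode the same calmodulin protein, and Calm2 stood at 1146, 1135 and 1217 FPKM. Calm3 stood lower, at 652 ± 32.3 FPKM. In the kinase that calmodulin activates, the gamma form Camk2g led at 151 ± 11.1 FPKM and Camk2a, the form prevalent in forebrain, was last at 27.7, 33.3 and 39.5 FPKM.

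Ion and water channels set how neurons fire and how astrocytes take up potassium and water. Scn1a led the sodium channel alpha subunits at 46.7, 45.8 and 52.1 FPKM, before Scn8a at 29.6 ± 0.697 FPKM. Kcna2 (49.2 ± 2.17 FPKM) led the Kv1 channels of the axon. Hcn2 held 91.0% ± 0.963 of the pacemaker channels at 116, 109 and 104 FPKM. In astrocytes, Kcnj10 (167 ± 6.44 FPKM) led the inward rectifiers and Aqp4 (129 ± 7.72 FPKM) held 94.1% ± 0.343 of the aquaporins.

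Metabolic families differed in how far one member led. Ldhb, the lactate dehydrogenase subunit common in oxidative tissue, was 8.35 ± 0.530 times Ldha. Ckb held 76.3% ± 1.02 of the creatine kinases at 1097, 1056 and 1018 FPKM, and the muscle form Ckm had a mean of 0.190 FPKM. Aldoa and Aldoc stood at 1072 ± 54.2 and 912 ± 15.1 FPKM. Eno2, neuron-specific enolase, led at 445, 430 and 501 FPKM. Fth1 was 13.6 ± 1.03 times the ferritin light chain Ftl1, and Car2, the carbonic anhydrase of oligodendrocytes, held 68.7% ± 1.21 of its family. Mt1 led the metallothioneins in saline 1 and 2 (819 and 841 FPKM) and Mt3 in saline 3 (658 against 622 FPKM).

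The spread between libraries was small for most genes. Over the 7207 protein-coding genes with a mean of at least 10 FPKM, the coefficient of variation (CV, SD over mean) had a median of 5.99%, and for 40.5% of these genes it was under 5%. Counting alone would give a median of 2.27% at the estimated depth, with a median of 1934 fragments behind a value. These fragments were computed with the longest annotated transcript of each gene. Where shorter transcripts prevail, the fragments are overstated and the counting spread is understated. Only 200 genes (2.78%) had a CV over 20%, and 34 genes (0.472%) differed at least 2-fold between the highest and lowest library. Without saline 3, the median CV of the other pair was 3.29% and 4 genes differed at least 2-fold. Both measures tend to be smaller over 2 libraries than over 3, whichever library is left out. The median CV was 10.2% for genes of 1 to 10 FPKM, 6.17% for 10 to 100 FPKM, 4.70% for 100 to 1000 FPKM and 5.11% for the 28 genes at 1000 FPKM or more.

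Genes used as references in quantitative PCR had CVs from 1.002% to 8.90%. Of 15 such genes 14 had at least 10 FPKM, and 8 of the 14 had a CV under the median of all genes. Ppia, at 2075, 2047 and 2035 FPKM, was the steadiest with a CV of 1.002%, followed by Sdha, a subunit of succinate dehydrogenase, at 204, 198 and 201 FPKM. Gapdh had a CV of 4.08% and Actb 5.08%. Hprt (161, 167 and 185 FPKM), Ywhaz (219, 208 and 243 FPKM) and Tbp (10.4, 12.5 and 11.4 FPKM) lay above the median at 7.32%, 7.83% and 8.90%. The reference genes were listed after the values were seen.

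Of the 7207 genes Capzb, which caps actin filaments, had the smallest CV. It stood at 120.11, 120.54 and 120.42 FPKM, a CV of 0.184%. Ptdss1, a phosphatidylserine synthase, stood at 30.46, 30.34 and 30.41 FPKM, and Pmm1, a phosphomannomutase, at 101.28, 100.93 and 100.90 FPKM. The adhesion protein gene Cntn1 and the factor gene Nfic were also among the 20 genes with the smallest CVs, at 0.352% and 0.333%. These values lie under the spread that counting alone gives (1.56% for Capzb), as the smallest of 7207 CVs from 3 libraries can, so their order among the steady genes was not interpreted.

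Genes of the motor neuron were among the most variable. Of the 34 genes that differed at least 2-fold, 9 were on the list of motor and cholinergic neurons. This list had 13 members at 10 FPKM or more, and 0.472% of all 7207 genes differed that much. Its members were chosen with earlier results of these data known, so its counts here are not independent of these data. In 26 of the 34 genes it was saline 3 that lay below the other libraries by the larger gap. Over all 7207 genes that was so for 19.3%, and saline 3 lay above by the larger gap for 34.2%. Uts2, the urotensin precursor of motor neurons, had the largest CV (84.1%) at 29.6, 49.0 and 3.26 FPKM, but was not on the motor and cholinergic list. Chodl, a marker of fast motor neurons, stood at 31.45, 29.47 and 4.99 FPKM, and Prph, peripherin, an intermediate filament of neurons with axons in peripheral nerve, at 55.05, 53.65 and 8.98 FPKM. Slc10a4, a transporter of cholinergic vesicles that was not on that list either, stood at 23.96, 20.95 and 4.43 FPKM. The motor list as a whole summed to 1183, 1104 and 526 FPKM, its share was 0.192% ± 0.0730 (0.0884% without genes that stand on several cell class lists), and saline 3 was lowest for 20 of its 22 members at 1 FPKM or more. The median member stood at 0.346 of its mean in saline 1 and 2. Over all genes at 1 FPKM or more, saline 3 was lowest in 30.5%. Nefh, the heavy neurofilament, stood at 494, 431 and 223 FPKM. By contrast Ache of the same list was nearly constant, as given above. Calca and Prph are also genes of sensory ganglia, whose defining gene Scn10a was at 0.00667 FPKM.

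Of the 34 genes, 25 were not on the motor and cholinergic list, among them Uts2, Slc10a4, Rpl26, Sgk1, Lgals1 and Hspb8. Rpl26, a ribosomal protein gene, stood at 220, 203 and 785 FPKM, so saline 3 was 3.87 times the lowest library, while the median CV of the 98 ribosomal protein genes was 5.07%. Chd3os, just under 2-fold, carries the name of an opposite-strand gene and stood at 116.2, 119.9 and 230.5 FPKM, and the sources do not state if reads were counted by strand. Sgk1, a kinase induced by glucocorticoids, stood at 86.3, 134 and 45.8 FPKM, and all 3 libraries differed. Lgals1, a galectin of motor and sensory axons, stood at 75.1, 64.0 and 25.4 FPKM, and Hspb8, a small heat shock protein, at 33.1, 31.5 and 11.6 FPKM. The part of any tissue difference in these values was not tested.

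Saline 3 differed from the others in a direction that depended on the cell class. Relative to the mean of saline 1 and 2, the median member in saline 3 was at 0.346 for motor and cholinergic genes, 0.501 for neurofilaments, 0.702 for oligodendrocytes and myelin, 0.885 for their precursors and 0.900 for astrocytes. It was at 0.203 for the 4 of 16 genes of dorsal root ganglion neurons at 1 FPKM or more, 0.796 for Schwann cells and 0.809 for meningeal fibroblasts. The ganglion list shares Calca and Prph with the motor list, so its value is not separate from the motor one. Without genes on several cell class lists, the ganglion share was 0.00149% in place of 0.0266%. The median member was at 0.978 for microglia and at 1.028 for all genes of 10 FPKM or more. It was at 1.01 for ventral interneuron and motor neuron factors, a list whose side of 1 changed with the scaling. It was at 1.19 for GABA-A subunits, 1.24 for Hox genes, 1.28 for neuropeptide precursors, 1.31 for dorsal horn factors, 1.32 for serotonin receptors and 1.39 for red cells. Its estimated depth was close to that of saline 1, and its count of protein-coding genes at 1 FPKM or more, 12841, lay between the 12836 and 12858 of the others. A ribosomal RNA copy in the table took 0.122%, 0.168% and 0.315% of all FPKM in the 3 libraries. The part of RNA content and of the dissected tissue in this order was not tested.

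**Figure D5:**
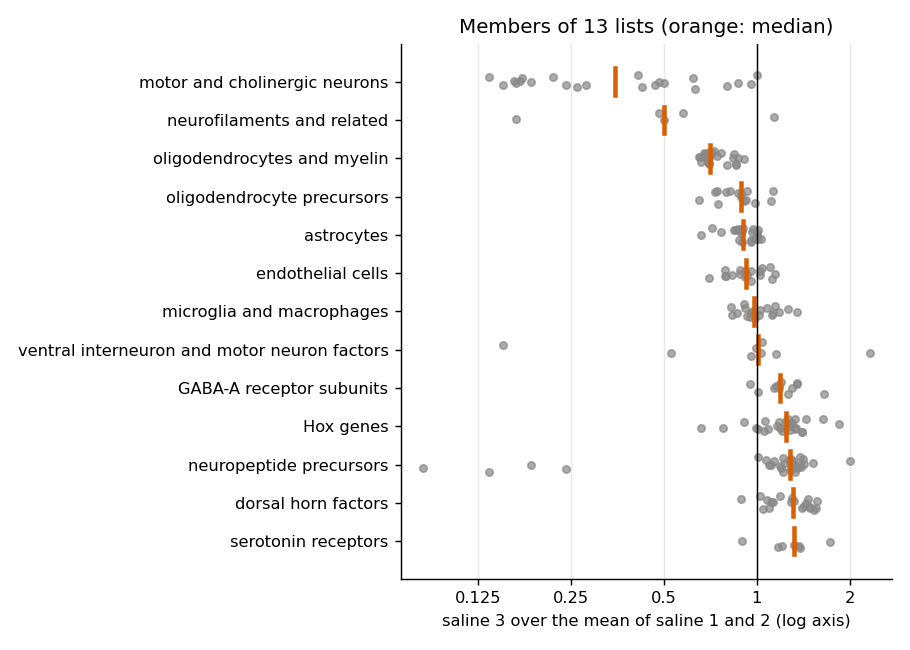
Ratio of saline 3 to the mean of saline 1 and 2 (log axis) for the members, at 1 FPKM or more, of 13 lists. Gray points are genes and orange lines list medians, which run from 0.346 for motor and cholinergic neurons to 1.32 for serotonin receptors. The points far to the left among neuropeptides are Uts2, Calcb, Uts2b and Calca.

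The upstream sequence of the genes at both ends of the scale of spread is shown with its content of CG marked, the dinucleotide that is dense in promoters of broadly used genes. Sequences came from RefSeq (GRCm38.p6), which gave 250 bases before the start for 17 of the 20 most variable and 16 of the 20 steadiest genes. The number of CG in these 250 bases, the same on both strands, had a median of 7 in the most variable genes (range 1 to 29) and of 18 in the steadiest (range 7 to 31). It had a median of 17 over the 5839 genes at 10 FPKM or more that have a promoter there (81.0% of these genes), and 9.59% of them held 5 or fewer. Such CG-poor stretches were found in 8 of the 17 most variable genes and in none of the 16 steadiest. Of all genes with a CV under 5%, 2400 (82.2%) had a promoter in RefSeq. Their median was 18 CG and 7.5% of them held 5 or fewer, close to the values of all genes at 10 FPKM or more. Over the wider set of 200 genes with a CV over 20%, 73.0% had a promoter in the table, too few for a comparison. Those 146 genes had a median of 13.5 CG, and 22.6% of them held 5 or fewer. The 100 bases before the start are printed for the first 4 genes on each side, by CV, whose stretch holds no annotated exon, with each CG in capitals.
Uts2, chr4:150996997-150997096, plus strand, 3 CG in 250 bases: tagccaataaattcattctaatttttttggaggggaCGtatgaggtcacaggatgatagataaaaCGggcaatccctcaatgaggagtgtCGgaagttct
Rpl26, chr11:68901466-68901565, plus strand, 16 CG in 250 bases: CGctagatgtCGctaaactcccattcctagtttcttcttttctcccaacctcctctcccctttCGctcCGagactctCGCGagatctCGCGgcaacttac
Slc18a3, chr14:32464851-32464950, minus strand, 21 CG in 250 bases: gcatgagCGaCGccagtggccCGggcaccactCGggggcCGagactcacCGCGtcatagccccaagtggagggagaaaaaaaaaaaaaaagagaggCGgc
Chodl, chr16:78930848-78930947, plus strand, 5 CG in 250 bases: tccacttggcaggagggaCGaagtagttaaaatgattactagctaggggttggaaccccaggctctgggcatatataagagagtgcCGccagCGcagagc
Nxt2, chrX:142227837-142227936, plus strand, 8 CG in 250 bases: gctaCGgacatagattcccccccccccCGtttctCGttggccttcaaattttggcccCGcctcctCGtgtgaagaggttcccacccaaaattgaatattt
Pmm1, chr15:81960931-81961030, minus strand, 18 CG in 250 bases: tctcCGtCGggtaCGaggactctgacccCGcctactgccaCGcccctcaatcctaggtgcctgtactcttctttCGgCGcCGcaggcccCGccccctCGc
Cog8, chr8:107056738-107056837, minus strand, 21 CG in 250 bases: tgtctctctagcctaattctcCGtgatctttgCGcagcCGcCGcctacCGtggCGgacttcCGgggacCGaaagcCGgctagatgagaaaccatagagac
Tfg, chr16:56717451-56717550, minus strand, 21 CG in 250 bases: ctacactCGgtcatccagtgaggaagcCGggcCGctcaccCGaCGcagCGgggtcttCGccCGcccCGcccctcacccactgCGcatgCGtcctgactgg
Uts2 and Chodl, both lowest in saline 3, had few CG, while Slc18a3, which shared that pattern, and Rpl26 had as many as the steady genes. The count of CG is a description of these windows, and no test was made of it.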

How the data were processed

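Total RNA from cord segments L4 to L5 (PureLink and Trizol) was sequenced from libraries of a KAPA stranded kit, per the labels' protocols. Per the submitters' processing notes, the tools were RSEM, STAR, Trimmomatic and bcl2fastq 2.19.0, and the build was mm10. For the versions of the first 3, the annotation and the strand setting, nothing is stated. The deposited FPKM values of the authors, 52513 genes with 2 decimals, were used unchanged. Gene biotypes were read from GENCODE M21 (99.7% of genes matched). Mitochondrial genes were not analysed here.

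Means, SDs and CVs were taken over the 3 saline libraries, and no test was made because no groups were compared. Shares are of the FPKM of nuclear protein-coding genes. The depth was fitted to single-transcript genes of 300 to 1500 nt with up to 6 fragments, where a value within 0.05 fragments of a whole number (or within the table's rounding) was taken as whole. Depth and spread were tested on simulated data. The 119 gene lists held 1071 genes, of which 1056 matched the table. Members and lists were chosen with earlier results of these data known. Named genes were the 4 tissue markers, the 20 most abundant genes, up to 5 leading members of each list described, receptor or transmitter genes under 1 FPKM, and the 20 genes with the largest and smallest CV. Predicted genes were counted and not named, and some genes that the rule names are not reported here. Further genes, picked with their values in view, were Cd3e, Fos, Gad2, Gal, Hprt, Htr3a, Jun, Mrgprd, Pdyn, Plin1, Pnoc, Scn10a, Sdha, Tac1, Tac2, Tbp, Ttr and Uts2b. Python 3.11.15, NumPy 2.4.6, pandas 2.3.3, SciPy 1.17.1 and matplotlib 3.10.9 were used.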

Additional observations from a re-analysis of the deposited data

How the results depend on the processing

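Expressed as a share of all genes in the table, pseudogenes included, the oligodendrocyte list held 3.52%, neurons 1.15%, astrocytes 1.04%, neuropeptide precursors 0.279% and Hox genes 0.127%. The 10, 100 and 1000 most abundant genes then held 4.94%, 15.4% and 41.5%. Without members that stand on several cell class lists, the motor and cholinergic share was 0.0884% in place of 0.192%. The number of genes at least 2-fold apart was 34 at a floor of 10 FPKM, 262 at 1 FPKM and 14 at 30 FPKM. Leaving out each library in turn gave 4 to 28 such genes, with 4 without saline 3. The median CV was 10.0% with no floor, and it ran from 3.29% to 5.84% when each library was left out in turn, an alternative chosen after seeing the data. Scaling to TPM, by median ratios or by quantiles moved the median CV within 5.72% to 6.18% and the count of 2-fold genes within 33 to 35. The order of saline 3 against the others kept its side of 1 under these scalings in 91 of 99 lists, and the 8 exceptions, with ventral interneuron and motor neuron factors among them, lay within 0.0474 of 0 on the log2 scale. No paired analysis was possible because no groups were compared. The precision of levels under 1 FPKM is limited by depth, and near-identical copies, overlapping genes and genes outside the annotation by the unstated counting rules.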
